A study of Mus musculus with 19 samples.

Results

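Hox genes encode homeodomain transcription factors that lie in 4 clusters in the mouse and give cells positional identity in the embryo. In blood, genes of the Hoxa and Hoxb clusters are known for their activity in stem and progenitor cells, where Hox proteins bind DNA together with the TALE cofactors of the Meis and Pbx families, and for their loss as cells mature. Hoxa9 promotes expansion of progenitors and is a leukemia gene when overexpressed, Hoxb4 expands hematopoietic stem cells in culture when forced, and a Hoxb5 reporter has been used to mark long-term stem cells in adult mouse marrow. The 10 genes described here were the rows of the deposited exon count matrix whose symbol was Hoxa5, Hoxa7, Hoxa9, Hoxa10, Hoxb2, Hoxb3, Hoxb4, Hoxb5, Hoxb6 or Hoxb7, out of 25124 genes in all. All 10 were found. The 4 Hoxa genes lie on chromosome 6, minus strand, and the 6 Hoxb genes on chromosome 11, plus strand (mm10). In each cluster a lower number marks a gene nearer to the end that is expressed first and most anteriorly in the embryo.

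The study compared 2 sorted populations of C57BL/6 mice at 2 ages, and its title places them in work on developmental cues and emergency megakaryopoiesis. Lymphoid-primed multipotent progenitors (LMPPs), which have lost most megakaryocyte and erythroid potential, came from fetal liver at E14.5, a day of gestation (3 RNA-seq libraries) and from the bone marrow of 12-week adults (3 libraries). Hematopoietic stem cells (HSCs) came from fetal liver of the same stage (2 libraries) and from 12-week adult marrow (3 libraries). No group carried a transgene, a deletion or a treatment in the labels. All 4 sorts kept live cells, by 7AAD, that lacked CD3, Gr1, B220 and ter119 and carried cKit and Sca1. LMPPs were further CD48+ CD150- Flt3+, and HSCs CD48- CD150+ Flt3-. The adult gates also removed CD11b+ cells, which the fetal gates did not, so age, tissue and this gate cannot be told apart. Each group further had an ATAC-seq peak list, a map of open chromatin made from 2 libraries, so that 8 ATAC-seq libraries stood behind 4 lists. The labels number the RNA libraries within a group and do not say that they came from separate animals, so the p-values measure the spread between these libraries, which may be technical.

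The RNA libraries held 19.8 to 64.8 M counts. On the third principal component of all tested genes (10.4% of the variance), fetal LMPP library 1 stood at -57.5 against -5.96 and 0.434 in the other fetal LMPP libraries. Adult LMPP library 3 stood at -24.5 against 49.5 and 51.4 in its group, and adult HSC library 3 at -89.1 against 16.3 and 20.5. Results are therefore also given without these 3 libraries where a call changed. Summed HSC markers (Slamf1, Procr, Hlf, Mecom, Ly6a, Kit and Fgd5) reached 390 to 669 CPM (counts scaled to a library size of 1 M) in fetal LMPPs, 300.2 to 810 CPM in adult LMPPs, 1365 to 1584 CPM in fetal HSCs and 549.6 to 1895 CPM in adult HSCs. Kit, a gate shared by all 4 sorts, averaged 427, 434, 774 and 825 CPM in that order. Its adult HSC libraries ranged from 195 to 1143 CPM. Slamf1, the gene of CD150, averaged 0.241, 0.481, 54.8 and 70.9 CPM. Summed LMPP markers (Flt3, Cd48, Satb1, Dntt, Il7r and Notch1) reached 1109.5 to 1132, 2850.2 to 3288, 89.2 to 89.9 and 23.4 to 36.0 CPM in the same order of groups. Dntt was at 0 in every fetal LMPP library and Il7r in every adult HSC library. Markers of mature cells also differed between groups: 7 erythroblast genes summed to 134 to 426 CPM in fetal LMPPs, 21.8 to 50.3 CPM in adult LMPPs, 909 to 1039 CPM in fetal HSCs and 26.4 to 120.5 CPM in adult HSCs. Of these, the beta globins Hbb-bt and Hbb-bs averaged 633 and 314 CPM in fetal HSCs, against 18.8 and 14.2 CPM in adult HSCs, and the alpha globin Hba-a1 averaged 12.7 against 15.1 CPM. The 5 T and NK cell genes summed to 37.7 to 52.2, 257 to 363, 6.55 to 8.22 and 53.7 to 119 CPM in the order above. Nearly all of it was Nkg7, a granule protein gene, which averaged 43.4, 299, 7.38 and 79.4 CPM, with Cd3e at 0 in every library and Cd3g, Cd8a and Ncr1 at 0 to 1.44 CPM. The 5 macrophage genes summed to 77.0 to 170 CPM in fetal LMPPs, 58.2 to 71.1 CPM in adult LMPPs, 19.9 to 24.9 CPM in fetal HSCs and 11.1 to 31.7 CPM in adult HSCs, and the 5 mast cell and basophil genes to 4.27 to 9.65, 19.7 to 74.7, 2.22 to 3.58 and 7.16 to 134 CPM. The part of these cells in the results below was not tested. In sorted bulk samples, fewer cells that express a gene and less RNA per cell cannot be told apart.

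Hoxa9 was the most abundant of the 10 genes in all 4 groups. It had 208, 119.9 and 119 CPM in the 3 fetal LMPP libraries, 131, 111 and 197 CPM in adult LMPPs, 113 and 144 CPM in fetal HSCs, and 69.3, 77.1 and 122 CPM in adult HSCs. Every pair of groups overlapped, and adult HSC libraries 1 and 2 lay below all other libraries. Libraries 1 of fetal LMPP and 3 of adult LMPP and adult HSC, the same 3 that stood apart on the third principal component, were each the highest of their group. Hoxa9 averaged 149 ± 51.0 CPM in fetal LMPPs, 146 ± 45.3 CPM in adult LMPPs (SD, n = 3 each), 129 ± 21.8 CPM in fetal HSCs (n = 2) and 89.6 ± 28.6 CPM in adult HSCs (n = 3).

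Hoxa7, the neighbour of Hoxa9 whose product is also linked to progenitor growth, was highest in fetal LMPPs and lowest in adult HSCs. Its level was 47.6, 38.7 and 43.8 CPM in fetal LMPPs, 25.8, 27.7 and 37.8 CPM in adult LMPPs, 25.1 and 29.8 CPM in fetal HSCs, and 17.4, 19.2 and 18.7 CPM in adult HSCs. Every fetal LMPP library lay above every other library, every adult HSC library lay below every other, and adult LMPPs and fetal HSCs overlapped.

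Hoxa10, known to favour myeloid and megakaryocytic fates when overexpressed, ran the other way. It had 20.3, 8.44 and 13.9 CPM in fetal LMPPs, 21.7, 19.3 and 22.6 CPM in adult LMPPs, 34.7 and 38.3 CPM in fetal HSCs, and 41.7, 40.0 and 42.8 CPM in adult HSCs. All 5 HSC libraries lay above all 6 LMPP libraries. Hoxa5, whose product affects the balance of myeloid and erythroid output, was lower still, at 5.88, 2.51 and 3.99 CPM in fetal LMPPs, 3.79, 3.67 and 4.42 CPM in adult LMPPs, 8.30 and 12.2 CPM in fetal HSCs, and 5.52, 5.86 and 6.60 CPM in adult HSCs. Both fetal HSC libraries were above all others, and fetal LMPP library 1 lay within the range of the adult HSCs. Hoxa5 shares positions with a Hoxa3 transcript on its own strand and with the antisense Hoxaas3. The library kit does not mark strand, so reads from such partners cannot be told apart.

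The Hoxb genes were low in LMPPs and, for Hoxb2 and Hoxb5, well above that in HSCs. Hoxb2, which patterns the hindbrain in the embryo, had 0.888, 0.0185 and 0.616 CPM in fetal LMPPs, 0.455, 1.55 and 1.75 CPM in adult LMPPs, 11.7 and 12.97 CPM in fetal HSCs, and 13.4, 13.2 and 19.5 CPM in adult HSCs. Hoxb5 had 0, 0 and 0.212 CPM in fetal LMPPs, 0.581, 0.392 and 0.589 CPM in adult LMPPs, 5.64 and 8.64 CPM in fetal HSCs, and 9.13, 10.7 and 10.4 CPM in adult HSCs. For both genes the lowest HSC library was several times above the highest LMPP library. The fetal LMPP value of Hoxb5 rested on 5 counts in 1 library.

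The remaining Hoxb genes reached at most 3.30 CPM in any library. Hoxb3 had 0.0444, 0.277 and 0.170 CPM in fetal LMPPs, 0.910, 0.630 and 0.0655 CPM in adult LMPPs, 2.16 and 3.30 CPM in fetal HSCs, and 2.60, 2.46 and 1.19 CPM in adult HSCs. Hoxb4 had 0.302, 0.296 and 0.425 CPM in fetal LMPPs, 1.11, 0.616 and 0.589 CPM in adult LMPPs, 1.46 and 2.19 CPM in fetal HSCs, and 0.919, 1.17 and 1.56 CPM in adult HSCs. Hoxb3 separated LMPP from HSC libraries at both ages, whereas the adult ranges of Hoxb4 overlapped. Hoxb6 had 0 CPM in all 3 fetal LMPP libraries, 0.606, 0.224 and 0 CPM in adult LMPPs, 0.472 and 1.11 CPM in fetal HSCs, and 0.650, 1.64 and 1.28 CPM in adult HSCs. Hoxb7 was at 0 in all 6 LMPP libraries, and reached 0.354 and 0.561 CPM in fetal HSCs and 0.159, 0.407 and 0.831 CPM in adult HSCs, on 5 to 50 counts a library. A count of 0 allowed at most 3 counts, or 0.0498 to 0.152 CPM depending on the library. This limit covers counting error only, since the libraries carried no molecular identifiers.

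**Figure D1:**
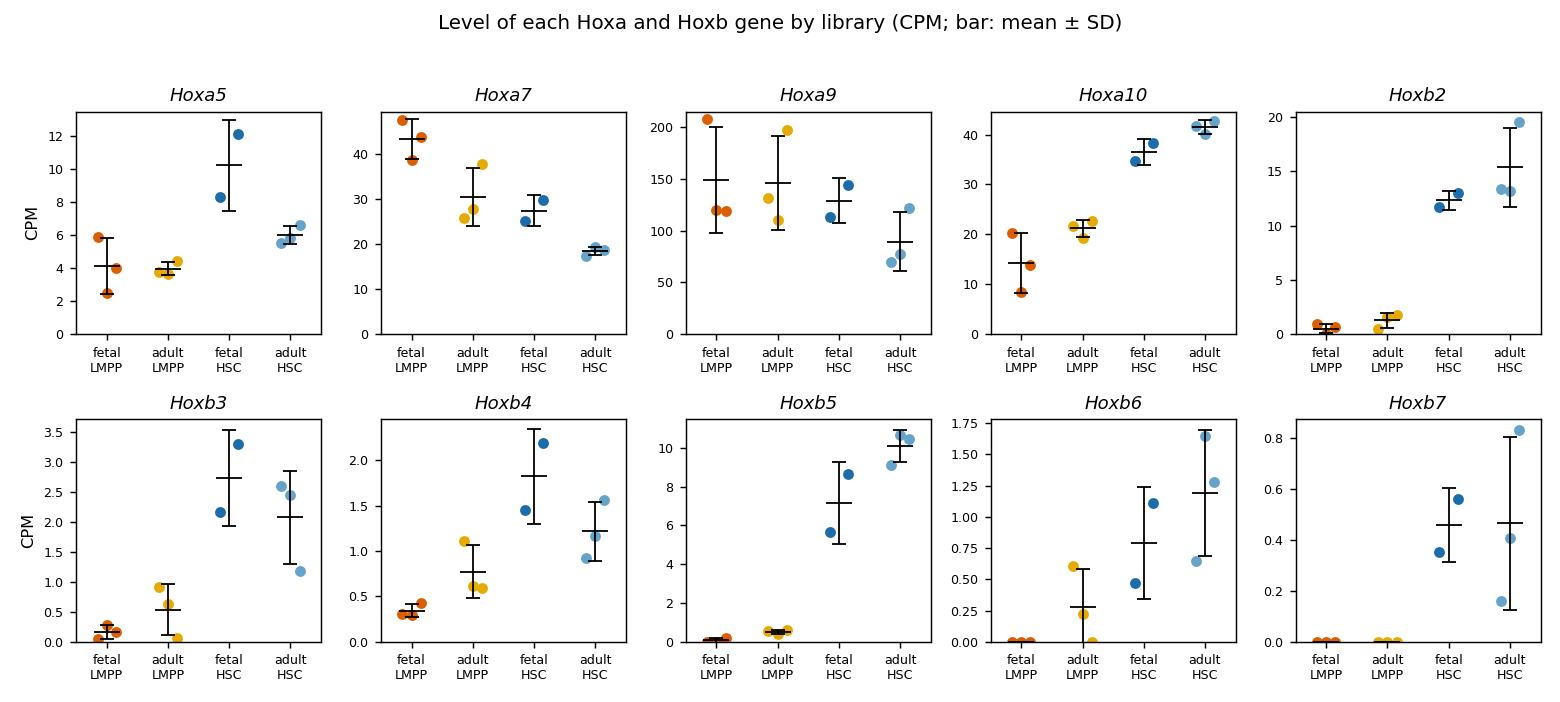
Level of each of the 10 genes in every RNA library (vertical axis, CPM on a linear scale from 0), by group; points are libraries and bars the mean ± SD of 2 or 3 libraries. Hoxa7 is highest in the fetal LMPP libraries. Hoxa10, Hoxb2, Hoxb3, Hoxb5 and Hoxb7 have all 5 HSC libraries above all 6 LMPP libraries. Hoxb7 passed the filter on low counts only through HSCs and had to be lower in LMPPs. Within an age, LMPP libraries lay below all HSC libraries for 33.3% of all genes tested in fetal liver and 18.1% in adult marrow.

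All 10 genes passed the filter on low counts, which required about 0.340 CPM in as many libraries as the smallest group. Hoxb7 passed through its HSC libraries alone (4 of 5 above that level, against 0 of 6 LMPP libraries). Hoxb6 was above it in 5 of 5 HSC libraries and 1 of 6 LMPP libraries. The smallest group has 2 libraries, so Hoxb6 too passed only through HSCs. Of the other Hoxb genes, Hoxb3 was above it in 2, Hoxb5 in 3, Hoxb4 in 4 and Hoxb2 in 5 of 6 LMPP libraries. A gene that passed only through HSCs had to be lower in LMPPs, so the counts of called genes below carry no weight for such genes.

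Set per kilobase of exon, so that genes can be compared with each other, the order of levels was the same at the top of both LMPP groups. Mean levels in fetal LMPPs were 46.2 CPM per kb for Hoxa9, 22.3 for Hoxa7, 5.55 for Hoxa10 and 2.20 for Hoxa5, with no overlap between neighbours, and the highest Hoxb gene, Hoxb2, had 0.312 CPM per kb. In adult LMPPs the same genes had 45.4, 15.6, 8.28, 2.11 and 0.772 CPM per kb, again with no overlap down to Hoxb2. The order differed in HSCs. Fetal HSCs had 39.9 CPM per kb of Hoxa9, then 14.3 of Hoxa10 and 14.1 of Hoxa7, which overlapped, then 7.60 of Hoxb2, 5.46 of Hoxa5 and 3.78 of Hoxb5, of which the last pair overlapped. Adult HSCs had 27.8 CPM per kb of Hoxa9, 16.2 of Hoxa10, then Hoxa7 and Hoxb2 with overlapping ranges at 9.461 and 9.458, 5.33 of Hoxb5 and 3.20 of Hoxa5. Below these, Hoxb3, Hoxb4, Hoxb6 and Hoxb7 overlapped with their neighbours in both HSC groups, at 0.362 to 0.842 CPM per kb.

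The summed level of the 4 Hoxa genes was similar across groups relative to its spread, whereas that of the 6 Hoxb genes was not. The Hoxa sum averaged 76.2 ± 20.7 CPM per kb in fetal LMPPs, 71.4 ± 18.0 in adult LMPPs, 73.8 ± 10.9 in fetal HSCs and 56.6 ± 9.73 in adult HSCs (SD, n = 3, 3, 2 and 3). The Hoxb sum averaged 0.531 ± 0.280, 1.70 ± 0.0570, 13.8 ± 2.54 and 17.1 ± 2.71 CPM per kb in the same order. As a share of the 10-gene sum, Hoxb genes made up 0.685 ± 0.355% in fetal LMPPs, 2.43 ± 0.606% in adult LMPPs, 15.7 ± 0.478% in fetal HSCs and 23.2 ± 0.527% in adult HSCs. No 2 groups overlapped in this share. It is a ratio within a library and does not depend on the scaling between libraries. The ratio of Hoxa7 to Hoxa10 per kilobase was 3.08, 6.04 and 4.15 in fetal LMPPs, 1.56, 1.89 and 2.20 in adult LMPPs, 0.949 and 1.02 in fetal HSCs, and 0.548, 0.632 and 0.574 in adult HSCs. The 4 groups were again separate, with the fetal libraries above the adult ones within each cell type. These sums were built from genes chosen with earlier results known and are given without a test.

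**Figure D2:**
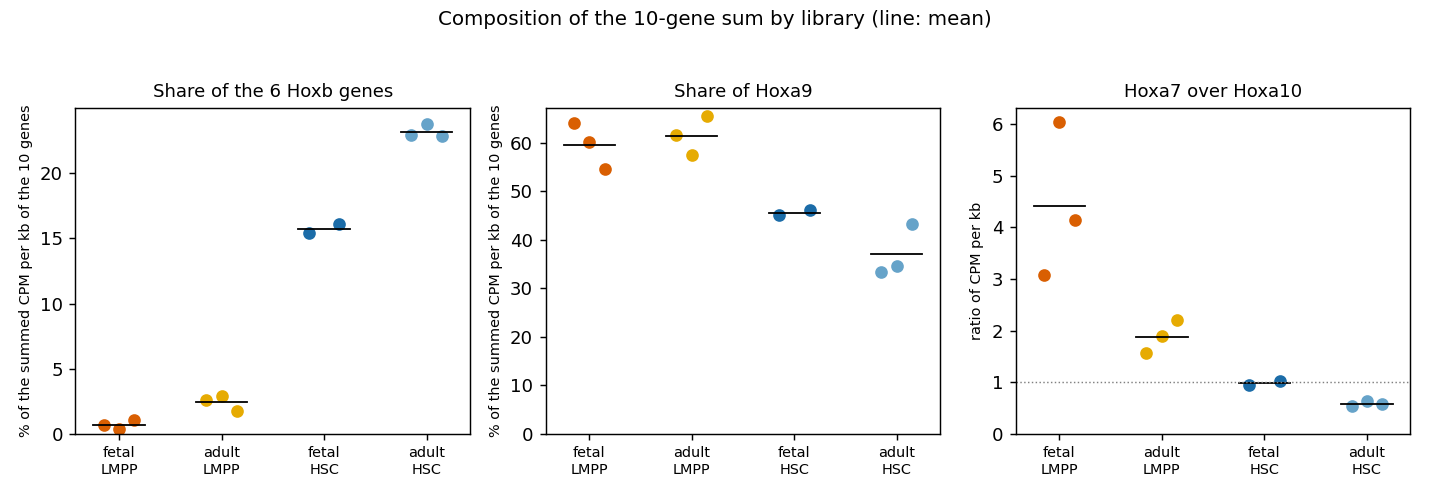
Composition of the 10-gene sum by library, with points for libraries and lines for group means. The vertical axes are the Hoxb share and the Hoxa9 share (percent of the summed CPM per kb) and the ratio of Hoxa7 to Hoxa10. The Hoxb share averages 0.685% in fetal LMPPs, 2.43% in adult LMPPs, 15.7% in fetal HSCs and 23.2% in adult HSCs, and the ratio is at least 1.56 in every LMPP library and at most 1.02 in every HSC library.

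Within fetal liver, the first question was how the genes of LMPPs compare with those of HSCs. Of the 10 genes, 8 were lower in LMPPs than in HSCs and 0 higher, at an adjusted p under 0.05 in edgeR's quasi-likelihood test. Of all 14720 genes tested, 9.85% were called lower and 8.21% higher. All 6 Hoxb genes were among the 8, with Hoxa5 and Hoxa10. For the 8 called genes every fetal LMPP library lay below both fetal HSC libraries, as was so for 33.3% of all genes tested. Hoxb6 and Hoxb7 passed the filter only through HSCs and had to be lower, so they carry no weight in either count. Hoxb5 differed by -6.95 ± 0.98 on the log2 scale (edgeR, SE, adjusted p = 0.00166) and Hoxb2 by -4.57 ± 0.90 (edgeR, adjusted p = 0.00772). These calls for Hoxb5 and Hoxb2 held in 20 of 20 other settings, including each omission of 1 library, with adjusted p up to 0.0144 and 0.0488. Here and below, a value after "up to" is the highest adjusted p over all other settings of that comparison. Hoxb3 differed by -4.08 ± 1.04 (edgeR, adjusted p = 0.0225) and Hoxb4 by -2.42 ± 0.62 (edgeR, adjusted p = 0.0229). Against LMPP libraries all at 0, taken at 3 counts each, Hoxb6 was at least 8.13-fold lower (edgeR, adjusted p = 0.0263) and Hoxb7 at least 4.70-fold lower (edgeR, adjusted p = 0.0343).

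Among the Hoxa genes, Hoxa10 was lower in fetal LMPPs by 1.36 ± 0.30 on the log2 scale, a value of -1.36 for LMPP minus HSC (edgeR, adjusted p = 0.0125), and Hoxa5 differed by -1.30 ± 0.37 (edgeR, adjusted p = 0.0351). Hoxa7 had a difference of 0.66 ± 0.22 that missed the threshold (edgeR, adjusted p = 0.0621). Its fetal LMPP libraries all lay above both fetal HSC libraries, as did those of 27.6% of all genes tested. It passed with DESeq2 (adjusted p = 0.0193), in the fit to the compared groups alone (edgeR, adjusted p = 0.0345), without adult LMPP library 3 and without the 3 libraries that stood apart (edgeR, 0.58, adjusted p = 0.0243). Hoxa9 differed by 0.21 ± 0.34 (edgeR, adjusted p = 0.716). The median log2 difference was -0.55 over the 4 Hoxa genes and -5.76 over the 6 Hoxb genes (-3.55 with Hoxb6 and Hoxb7 at their bounds), beside -0.08 over all genes tested. Both Hoxb medians include Hoxb6 and Hoxb7, which had to be lower. Without fetal HSC library 1 or library 2, 2 of the 10 genes were called (Hoxb2 and Hoxb5), and 4 were called without any 1 of the 3 fetal LMPP libraries. Hoxa10 lost its call without either fetal HSC library alone (adjusted p up to 0.0989 in edgeR). Hoxb3 also lost it without fetal LMPP library 1 or 3 (up to 0.131), Hoxb4 without fetal LMPP library 1 or 2 (up to 0.186), Hoxb6 without any fetal LMPP library (up to 0.129) and Hoxb7 without any fetal LMPP library or adult HSC library 2 (up to 0.158), in edgeR. Hoxa5 also lost it without fetal LMPP library 2 or 3 or adult HSC library 1 or 2, or in the fit to the compared groups alone (adjusted p up to 0.280 in edgeR). Their directions did not change in any setting.

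Within adult marrow, 4 of the 10 genes were lower in LMPPs than in HSCs and 1 was higher, beside 9.33% of all genes called lower and 7.76% called higher. Every adult LMPP library lay below every adult HSC library for 7 of the 10 genes and above all of them for 1, against 18.1% and 13.7% of all genes tested. The 4 include Hoxb7, and the 7 include Hoxb6 and Hoxb7. These passed the filter only through HSCs and carry no weight in the counts. Hoxb5 differed by -4.25 ± 0.78 on the log2 scale (edgeR, adjusted p = 0.00418), with the call kept in 20 of 20 other settings. Hoxb2 differed by -3.58 ± 0.82 (edgeR, adjusted p = 0.0137), and lost the call only without adult LMPP library 1 (edgeR, adjusted p = 0.0532). Hoxa10 differed by -0.97 ± 0.27 (edgeR, adjusted p = 0.0346) and Hoxb7 was at least 4.18-fold lower (edgeR, adjusted p = 0.0344). Hoxa7 was the gene higher in LMPPs, by 0.72 ± 0.19 (edgeR, adjusted p = 0.0282), or 1.65-fold. With the replicate number as a block, used because same-numbered adult libraries deviated together, Hoxb7 had an adjusted p of 0.0931 in edgeR and 4 genes were called.

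The other adult differences were smaller relative to their errors. Hoxb3 had a difference of -1.99 ± 0.90 (edgeR, adjusted p = 0.168), Hoxb6 of -2.12 ± 1.23 (edgeR, adjusted p = 0.304) and Hoxb4 of -0.67 ± 0.55 (edgeR, adjusted p = 0.489). Hoxa5 differed by -0.60 ± 0.34 (edgeR, adjusted p = 0.279). Hoxa9 differed by 0.71 ± 0.31 (edgeR, adjusted p = 0.150), and passed without the 3 libraries that stood apart (0.72, edgeR, adjusted p = 0.00638), where Hoxb7 no longer did (edgeR, adjusted p = 0.0715). The median was 0.06 over the Hoxa genes and -2.85 over the Hoxb genes (-2.09 with Hoxb7 at its bound), beside -0.05 over all genes. Both Hoxb medians include Hoxb6 and Hoxb7, which had to be lower. With 1 library left out, 2 to 5 of the 10 were called. There were 2 without adult HSC library 1 or 2 or without adult LMPP library 1 or 3, and 3 without adult LMPP library 2 or without fetal HSC library 1 or 2, whose omission also changes the shared estimate of spread. Hoxa7 lost its call without adult HSC library 1 or 2 or adult LMPP library 3, and in the fit to the compared groups alone (adjusted p up to 0.102 in edgeR), where 0 genes were called higher and Hoxb7 also missed the threshold (edgeR, adjusted p = 0.0716). Hoxa10 and Hoxb7 lost theirs without any 1 adult library or fetal HSC library 1 or 2, and Hoxa10 also without fetal LMPP library 3, at an adjusted p of up to 0.103 and 0.0931 in edgeR. Hoxa9 gained one without adult HSC library 3. No direction changed for the called genes.

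**Figure D3:**
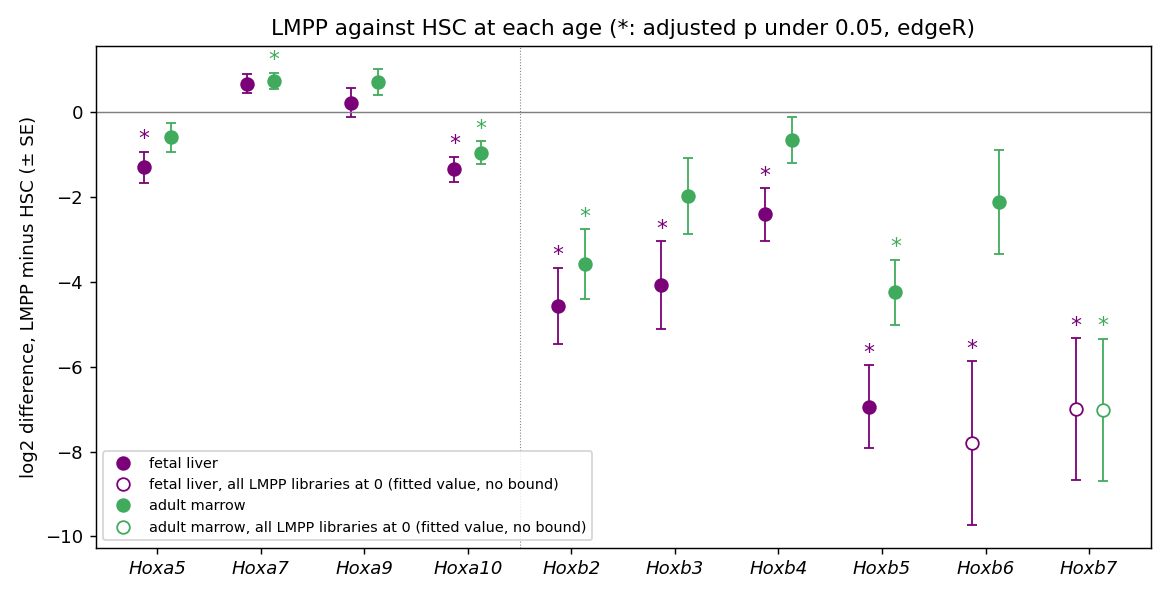
Log2 difference between LMPPs and HSCs (vertical axis, LMPP minus HSC, ± SE from edgeR) for each gene in fetal liver and in adult marrow; open symbols are fitted values of genes at 0 in all LMPP libraries and stars mark an adjusted p under 0.05. All 6 Hoxb genes lie below 0 at both ages, Hoxa5 and Hoxa10 lie below 0, and Hoxa7 and Hoxa9 lie above 0. Hoxb6 and Hoxb7 passed the filter only through HSCs and had to be lower.

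Whether the LMPP to HSC difference itself changed with age was tested as an interaction, the fetal difference minus the adult one. None of the 10 genes passed in edgeR's quasi-likelihood test, 2 had an unadjusted p under 0.05, and DESeq2 called 0 as well. Of all genes, 0.387% were called higher and 0.543% lower. Hoxb5 had the lowest adjusted p but for Hoxb6, at -2.69 ± 1.19 (edgeR across all genes, adjusted p = 0.377), and passed when fetal LMPP library 3 was left out, the single fetal LMPP library with a Hoxb5 read (edgeR, adjusted p = 0.0247). Hoxb6 had an unadjusted p of 0.0324 and an adjusted p of 0.331 in edgeR, with all fetal LMPP libraries at 0. Hoxb4 had -1.75 ± 0.82 (edgeR, adjusted p = 0.411), Hoxb3 -2.09 ± 1.32 (edgeR, adjusted p = 0.580) and Hoxb2 -0.99 ± 1.14 (edgeR, adjusted p = 0.815). Without the 3 libraries that stood apart, Hoxa9 passed at -0.83 (edgeR, adjusted p = 0.0487). The larger number of Hoxb calls in fetal liver than in adult marrow is thus not shown to be a difference between the ages.

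The next question was whether fetal and adult cells of the same type differed in these genes. Between fetal and adult HSCs, 0 of 10 were called in edgeR's quasi-likelihood test, 1 had an unadjusted p under 0.05 and DESeq2 called 0, beside 2.07% of all genes called higher and 2.89% lower. Hoxa7 had a difference of 0.57 ± 0.21 (edgeR, adjusted p = 0.177), with both fetal libraries above all adult ones, as were those of 20.8% of all genes tested. Hoxa5 differed by 0.77 ± 0.37 (edgeR, adjusted p = 0.301) and Hoxa9 by 0.52 ± 0.34 (edgeR, adjusted p = 0.468). Without the 3 libraries that stood apart, 2 were called, Hoxa7 (0.57, edgeR, adjusted p = 0.0498) and Hoxa9 (0.81, edgeR, adjusted p = 0.00633). That fit holds 2 adult HSC libraries, whose Hoxa9 levels were 69.3 and 77.1 CPM. Hoxa10 differed by -0.18 ± 0.30 (edgeR, adjusted p = 0.823), Hoxb2 by -0.32 ± 0.82 (edgeR, adjusted p = 0.899) and Hoxb5 by -0.50 ± 0.75 (edgeR, adjusted p = 0.804). For these 3 genes every fetal HSC library lay below every adult one, as was so for 20.3% of all genes tested. The median was 0.55 over the Hoxa genes and -0.17 over the Hoxb genes, beside 0 over all genes.

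Between fetal and adult LMPPs, 1 of 10 was called, lower in fetal cells, beside 8.29% of all genes called lower and 7.08% called higher. That gene was Hoxb5, at -3.19 ± 0.95 on the log2 scale (edgeR, adjusted p = 0.0463). The call held in 8 of 20 other settings. It was lost without fetal LMPP library 1 or 2, any 1 adult LMPP library, fetal HSC library 1 or 2, or adult HSC library 1 or 2, at an adjusted p of up to 0.288 in edgeR, in the fit to the compared groups alone (edgeR, adjusted p = 0.288), and without the 3 libraries that stood apart (edgeR, -2.24, adjusted p = 0.0876). With the replicate block the adjusted p of Hoxb5 was 0.0551 in edgeR. All 3 fetal LMPP libraries lay below all 3 adult ones, as was so for 16.9% of all genes tested. Hoxb6 was at 0 in all fetal LMPP libraries and in 1 adult one, so the groups overlapped. Its adult mean was 2.85-fold above the level of 3 counts in fetal LMPPs. Hoxb6 missed the threshold (edgeR, adjusted p = 0.0577), and passed in DESeq2 (adjusted p = 0.0127). Hoxb4 differed by -1.17 ± 0.57 (edgeR, adjusted p = 0.198), Hoxb3 by -1.70 ± 0.95 (edgeR, adjusted p = 0.265) and Hoxb2 by -1.31 ± 0.81 (edgeR, adjusted p = 0.311). Hoxb7 was at 0 in both groups and allows no comparison.

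Of the Hoxa genes in the same comparison, Hoxa7 had a difference of 0.51 ± 0.19 (edgeR, adjusted p = 0.102) and Hoxa10 one of -0.57 ± 0.27 (edgeR, adjusted p = 0.187). Both passed without the 3 libraries that stood apart, Hoxa7 at 0.61 (edgeR, adjusted p = 0.0233) and Hoxa10 at -0.89 (edgeR, adjusted p = 0.0194), and Hoxb6 did as well (edgeR, adjusted p = 0.0307). Hoxa9 differed by 0.02 ± 0.30 (edgeR, adjusted p = 0.980) and Hoxa5 by 0.06 ± 0.34 (edgeR, adjusted p = 0.934). The median was 0.04 over the Hoxa genes and -1.50 over the Hoxb genes (-1.41 with Hoxb6 at 2.85-fold lower), beside 0 over all genes. This comparison shares its libraries with the 2 comparisons of LMPPs with HSCs, as does that of the HSCs.

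The other genes of the Hox clusters were mostly too low to test. Of 28 further Hox genes listed, 6 passed the filter. Hoxb9 and Hoxc6 passed it through HSC libraries alone (4 and 3 of 5), so they had to be lower in LMPPs and their tests carry no weight. The same holds for Hoxa2, above the filter's level in 5 of 5 HSC libraries and 1 of 6 LMPP libraries, which was not called at either age. Of the others, 1 was lower in fetal LMPPs, Hoxa3, and 0 were called in adult marrow. Of all genes tested, 9.85% were called lower in fetal LMPPs and 9.33% in adult LMPPs. Hoxa3 had 1.72, 1.98 and 2.04 CPM in fetal LMPPs against 5.47 and 10.3 CPM in fetal HSCs (log2 difference -2.04 ± 0.47, edgeR, adjusted p = 0.0152), a call lost without fetal HSC library 2 (0.177). Hoxb9 and Hoxc6, which control patterning along the trunk, were at 0 in all 6 LMPP libraries. Hoxb9 reached 0.944 and 1.68 CPM in fetal HSCs and 0.285, 0.586 and 0.515 CPM in adult HSCs. It was at least 13.5-fold lower in fetal LMPPs and at least 4.15-fold lower in adult LMPPs, and Hoxc6 at least 5.44-fold and 4.93-fold lower. Between ages, 0 of the 6 were called in HSCs and 0 in LMPPs.

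Of 10 noncoding RNAs of the clusters listed, 5 were tested. Hoxb3os, antisense to Hoxb2 and Hoxb3, had 0.417, 0.0739 and 0.340 CPM in fetal LMPPs, 0.404, 0.770 and 0.868 CPM in adult LMPPs, 6.00 and 6.36 CPM in fetal HSCs, and 5.34, 5.48 and 6.30 CPM in adult HSCs. It was lower in LMPPs in fetal liver (-4.40 ± 0.60, edgeR, adjusted p = 0.00133) and in adult marrow (-3.05 ± 0.54, edgeR, adjusted p = 0.00348), in 20 of 20 other settings each. Hoxb5os, antisense to Hoxb5 and Hoxb6, was lower in fetal LMPPs than in fetal HSCs (-5.68 ± 1.01, edgeR, adjusted p = 0.00464) and than in adult LMPPs (-3.18 ± 0.94, edgeR, adjusted p = 0.0461, a call that 7 of 20 other settings kept, lost without any 1 library other than adult HSC library 3 and fetal LMPP library 3, up to 0.228). The call between LMPPs was also lost in the fit to the compared groups alone, with the replicate block and without the filter on low counts. It did not hold without the 3 libraries that stood apart either. In adult marrow the difference of Hoxb5os was -2.28 ± 0.79 (edgeR, adjusted p = 0.0738). Hoxb5os was above the filter's level in 1 of 6 LMPP libraries and 5 of 5 HSC libraries. It thus passed only through HSCs and had to be lower in LMPPs, so its calls against HSCs carry no weight. None of the 5 was called higher in any of these comparisons. Shares of all genes called higher and lower were 8.21% and 9.85% in fetal liver. They were 7.76% and 9.33% in adult marrow, and 7.08% and 8.29% in fetal against adult LMPPs. Without strand, reads of these RNAs and of the Hoxb genes they cross cannot be told apart.

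Of 8 TALE cofactors listed, 7 were tested, and 3 were lower in LMPPs than in HSCs in fetal liver and 3 in adult marrow, where 1 was higher. Of all genes tested, 9.85% were called lower in fetal liver and 9.33% in adult marrow, where 7.76% were called higher. Of the 3 cofactors lower at each age, Meis2 passed the filter through its HSC libraries alone (5 of 5, against 0 of 6 LMPP libraries) and had to be lower. Meis1, which binds DNA with Hoxa9 and in mice is needed to maintain HSCs, had 100.2, 71.1 and 86.1 CPM in fetal LMPPs, 154, 168 and 99.5 CPM in adult LMPPs, 277 and 323 CPM in fetal HSCs, and 443, 500.3 and 296 CPM in adult HSCs. The difference was -1.81 ± 0.27 in fetal liver (edgeR, adjusted p = 0.00212) and -1.56 ± 0.25 in adult marrow (edgeR, adjusted p = 0.00187). Both calls for Meis1 held in 20 of 20 other settings. Meis1 was thus called lower in LMPPs at both ages, and Hoxa9 at neither.

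Pbx3 was lower by a log2 difference of -1.64 ± 0.48 in fetal LMPPs (edgeR, adjusted p = 0.0411) and -2.19 ± 0.46 in adult LMPPs (edgeR, adjusted p = 0.00844, kept in 20 of 20). The fetal call of Pbx3 was kept in 12 of 20 other settings (up to 0.158). It was lost without fetal HSC library 1 or 2, adult HSC library 1 or 2, fetal LMPP library 2 or 3 or adult LMPP library 1. The replicate block lost it too. Meis2 was at 0 in 5 of 6 LMPP libraries, against 4.52 and 4.97 CPM in fetal HSCs and 1.66, 2.20 and 1.20 CPM in adult HSCs. It differed by -6.25 ± 1.34 in fetal liver in edgeR's fit and was at least 15.1-fold lower in adult LMPPs. Pbx4 was higher in adult LMPPs than in adult HSCs (0.73 ± 0.22, edgeR, adjusted p = 0.0470), but 4 of 20 other settings kept that call, which only the omission of adult HSC library 3 left standing among omissions of 1 library, and the replicate block gave an adjusted p of 0.0736. It was lower in fetal than in adult LMPPs (-1.45 ± 0.23, edgeR, adjusted p = 0.00227, 20 of 20), with 7.56, 7.26 and 6.82 CPM against 20.3, 18.2 and 20.5 CPM. Between fetal and adult HSCs 0 of the 7 were called, beside 2.07% of all genes called higher and 2.89% called lower.

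Of 20 listed activators of Hox transcription, chiefly of the MLL complex, 17 were tested. Among them 2 were lower in fetal LMPPs and 1 in adult LMPPs than in the HSCs of the same age, where 9.85% and 9.33% of all genes were called lower. Mllt3 (AF9), which binds acylated histones and is known to sustain human HSCs in culture, had 17.5, 14.3 and 11.8 CPM in fetal LMPPs, 14.2, 16.4 and 10.1 CPM in adult LMPPs, 157 and 199 CPM in fetal HSCs, and 109, 166 and 114 CPM in adult HSCs. The difference was -3.61 ± 0.28 in fetal liver (edgeR, adjusted p = 9.37e-05) and -3.26 ± 0.26 in adult marrow (edgeR, adjusted p = 3.8e-05), in 20 of 20 other settings. Kmt2a, the MLL methyltransferase itself, had 14.9, 19.8 and 22.2 CPM in fetal LMPPs against 36.1 and 49.5 CPM in fetal HSCs (-1.18 ± 0.32, edgeR, adjusted p = 0.0288), a call lost without fetal HSC library 1 or 2 or fetal LMPP library 1 or 2 (up to 0.234). Between ages 0 of the 17 were called in HSCs and 0 in LMPPs.

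All 16 listed Polycomb genes, whose products keep Hox genes silent, were tested. Ezh2, the methyltransferase of the second Polycomb complex, had 204, 173 and 164 CPM in fetal LMPPs, 164, 139.8 and 184 CPM in adult LMPPs, 116 and 107 CPM in fetal HSCs, and 101, 85.5 and 102 CPM in adult HSCs. It was higher in LMPPs in fetal liver (0.69 ± 0.17, edgeR, adjusted p = 0.0200, lost without fetal HSC library 1 or 2 or fetal LMPP library 1, up to 0.168) and in adult marrow (0.76 ± 0.15, edgeR, adjusted p = 0.00649, 20 of 20). Cbx7, the reader subunit of the first complex that is known to hold HSCs in self-renewal in mice, had 6.24, 6.84 and 6.99 CPM in fetal LMPPs, 17.8, 17.5 and 14.4 CPM in adult LMPPs, 22.0 and 29.2 CPM in fetal HSCs, and 34.1, 32.1 and 28.8 CPM in adult HSCs. It was lower in LMPPs in fetal liver (-1.94 ± 0.22, edgeR, adjusted p = 0.000575) and in adult marrow (-0.94 ± 0.20, edgeR, adjusted p = 0.00844), and lower in fetal than in adult LMPPs (-1.31 ± 0.20, edgeR, adjusted p = 0.00194), in 20 of 20 other settings each. Phc1 was the other gene called lower in LMPPs, at -1.38 ± 0.35 in fetal liver (edgeR, adjusted p = 0.0214, lost without fetal HSC library 1 or 2 or fetal LMPP library 1 or 2, up to 0.135) and -1.05 ± 0.32 in adult marrow (edgeR, adjusted p = 0.0450, kept in 9 of 20 other settings, up to 0.170, and 0.0594 with the replicate block). The adult call of Phc1 was lost without any 1 library except adult HSC library 3 and adult LMPP library 2, and in the fit to the compared groups alone. Its fetal call was also lost with the replicate block. Ring1 was lower in fetal than in adult LMPPs (-1.04 ± 0.27, edgeR, adjusted p = 0.0266, lost without any 1 fetal LMPP library or adult LMPP library 1 or 2, up to 0.0895). In HSCs 0 of the 16 were called between ages, beside 2.07% of all genes called higher and 2.89% called lower. In LMPPs 2 of the 16 were called lower in fetal cells and 0 higher, beside 8.29% and 7.08% of all genes.

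**Figure D4:**
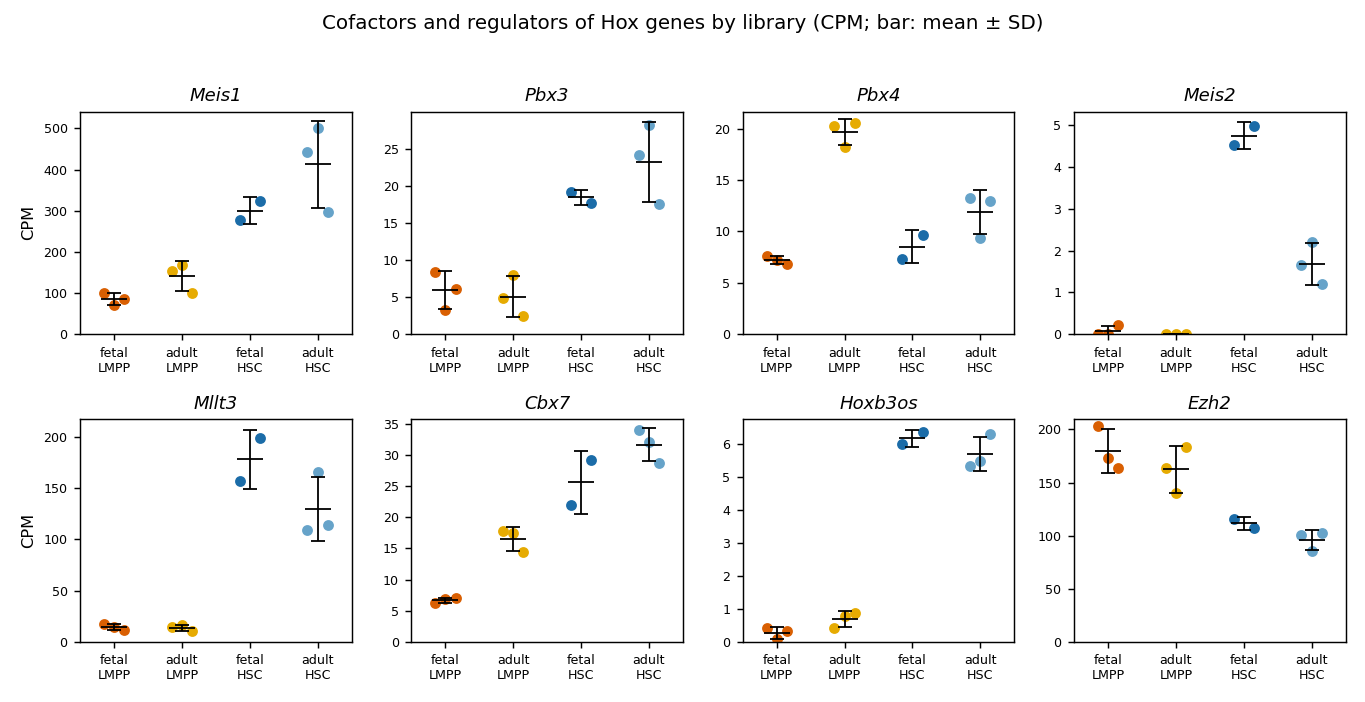
Level of Meis1, Pbx3, Pbx4, Meis2, Mllt3, Cbx7, Hoxb3os and Ezh2 in every RNA library (vertical axis, CPM on a linear scale from 0), by group, with bars for the mean ± SD of 2 or 3 libraries. Mllt3 lies between 10.1 and 17.5 CPM in all LMPP libraries and between 109 and 199 CPM in all HSC libraries, and Ezh2 is the single gene of the 8 called higher in LMPPs at both ages.

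Genes known as direct targets of Hoxa9 or Meis1 in mouse leukemia cells (11 listed, all tested) did not move one way. In fetal liver 4 were higher and 1 lower in LMPPs, and in adult marrow 4 were higher and 1 lower. Of all genes tested, 8.21% were called higher and 9.85% lower in fetal liver, and 7.76% and 9.33% in adult marrow. Flt3 was among the 4 at each age. Flt3, which is also the gate that separates the populations, had 469, 496 and 512 CPM in fetal LMPPs against 28.2 and 29.8 CPM in fetal HSCs. Cd34, a surface protein of progenitors, differed by 1.49 ± 0.19 in fetal liver (edgeR, adjusted p = 0.000911) and 2.84 ± 0.17 in adult marrow (edgeR, adjusted p = 7.6e-06). Sox4, a lymphoid and leukemia transcription factor, was higher in adult LMPPs (1.63 ± 0.19, edgeR, adjusted p = 0.000324), and Id2, an inhibitor of E proteins, in fetal LMPPs (2.25 ± 0.48, edgeR, adjusted p = 0.0112, lost without fetal HSC library 1 or 2, up to 0.0985). Trib2 was lower in adult LMPPs (-1.69 ± 0.40, edgeR, adjusted p = 0.0156, lost without adult HSC library 1 or 2 or adult LMPP library 2 or 3, up to 0.0562) and Lmo2, a stem cell transcription cofactor, in fetal LMPPs (-0.74 ± 0.16, edgeR, adjusted p = 0.0101, lost without fetal HSC library 2, at 0.0978).

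Between ages, the targets differed in both directions. In fetal HSCs 2 of the 11 were called higher and 2 lower, beside 2.07% and 2.89% of all genes. In fetal LMPPs 1 was called higher and 3 lower, beside 7.08% and 8.29% of all genes. In fetal against adult HSCs, Flt3 (1.12 ± 0.20, edgeR, adjusted p = 0.00893) and Cd34 (0.89 ± 0.18, edgeR, adjusted p = 0.0153) were higher, and Trib2 (-3.02 ± 0.50, edgeR, adjusted p = 0.00570) and Lmo2 (-0.72, edgeR, adjusted p = 0.0280) were lower. Each of these 4 calls was lost without fetal HSC library 1, those of Flt3, Cd34 and Lmo2 also without fetal HSC library 2, and those of Cd34 and Lmo2 also without adult HSC library 2. The fit to the compared groups alone lost those of Flt3, Cd34 and Lmo2 too, and the replicate block that of Lmo2. The adjusted p in edgeR was up to 0.120 for Flt3, 0.131 for Cd34, 0.251 for Lmo2 and 0.0801 for Trib2. In fetal against adult LMPPs, Id2 was higher (2.01 ± 0.41, edgeR, adjusted p = 0.00919), and Lmo2 (-1.28 ± 0.14, edgeR, adjusted p = 0.000394), Flt3 (-0.99 ± 0.18, edgeR, adjusted p = 0.00529) and Myb (-0.55, edgeR, adjusted p = 0.0335) were lower. The first 3 of these held in 20 of 20 other settings and that of Myb in 12. The call of Myb was lost without fetal HSC library 1 or 2, any 1 fetal LMPP library or adult LMPP library 1 or 2 (up to 0.112). It was also lost in the fit to the compared groups alone.

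The genes whose log2 CPM over the 11 libraries was most like that of Hoxa9, among 10592 genes averaging 5 CPM or more, were Dynlt1b (Pearson r 0.953), Dynlt1f and Dynlt1c (0.952 each), H13 (0.949) and Fis1 (0.949). The Dynlt1 genes are near-identical copies, so their counts are uncertain one by one and count as 1 pattern. For Hoxb4 they were Atg16l2 (0.954), Rapgef3 (0.939), Zfp870 (0.936), Bbc3 (0.933) and Aldh6a1 (0.929). The points share library, depth and group, and the 3 libraries with the highest Hoxa9 of their group are those that stood apart.

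Open chromatin was read from the 4 peak lists, 1 per group, which hold 37156 distinct peaks for fetal LMPPs, 50579 for adult LMPPs, 48286 for fetal HSCs and 53068 for adult HSCs. With 1 list a group there is no replicate check, and no test was made. A peak within 1 kb of the start site was listed for 1 of the 10 genes in fetal LMPPs (Hoxb4), 2 in adult LMPPs (Hoxa7 and Hoxb4), 4 in fetal HSCs (Hoxa5, Hoxa7, Hoxa10 and Hoxb4) and 3 in adult HSCs (Hoxa7, Hoxa10 and Hoxb4). Over the 14720 genes tested these shares were 76.4%, 80.6%, 81.8% and 83.4% in the same order. Hoxb4 was the gene of the 10 with such a peak in all 4 lists. The longest of the lists is that of adult HSCs and the shortest that of fetal LMPPs, so a peak missing from one list may lie just under its threshold.

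A listed peak covered the start site itself in 3 cases, and the promoters concerned are printed because the peak edge falls inside them. The windows run from 250 bases before to 50 bases after the start in RefSeq (GRCm38.p6), in the direction of the gene, with bases inside the peak in capitals. RefSeq promoter windows matched 5 of the 10 genes (Hoxa5, Hoxa7, Hoxa9, Hoxa10 and Hoxb4). The Hoxa5 window (chr6:52204538-52204837, minus strand) shares 238 bases with a fetal HSC peak, the Hoxa10 window (chr6:52234890-52235189, minus strand) 237 bases with an adult HSC peak, and the Hoxb4 window (chr11:96318017-96318316, plus strand) 248 bases with a fetal HSC peak. The Hoxa9 window (chr6:52227321-52227620, minus strand), that of the most abundant gene, overlaps no listed peak and is given in lower case for contrast.
Hoxa5: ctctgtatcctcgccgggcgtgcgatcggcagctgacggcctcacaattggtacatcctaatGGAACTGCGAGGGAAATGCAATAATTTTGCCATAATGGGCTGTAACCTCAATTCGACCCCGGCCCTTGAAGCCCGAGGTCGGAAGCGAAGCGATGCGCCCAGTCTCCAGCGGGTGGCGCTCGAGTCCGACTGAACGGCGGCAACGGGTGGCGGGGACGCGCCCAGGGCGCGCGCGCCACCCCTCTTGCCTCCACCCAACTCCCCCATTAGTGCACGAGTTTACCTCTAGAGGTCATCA
Hoxa10: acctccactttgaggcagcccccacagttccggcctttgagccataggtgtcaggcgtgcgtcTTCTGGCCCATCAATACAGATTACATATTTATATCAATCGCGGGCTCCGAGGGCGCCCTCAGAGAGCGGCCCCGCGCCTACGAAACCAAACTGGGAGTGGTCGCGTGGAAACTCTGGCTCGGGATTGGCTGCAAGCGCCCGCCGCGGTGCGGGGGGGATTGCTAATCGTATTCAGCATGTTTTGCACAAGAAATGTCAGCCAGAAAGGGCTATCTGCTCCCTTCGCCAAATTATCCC
Hoxb4: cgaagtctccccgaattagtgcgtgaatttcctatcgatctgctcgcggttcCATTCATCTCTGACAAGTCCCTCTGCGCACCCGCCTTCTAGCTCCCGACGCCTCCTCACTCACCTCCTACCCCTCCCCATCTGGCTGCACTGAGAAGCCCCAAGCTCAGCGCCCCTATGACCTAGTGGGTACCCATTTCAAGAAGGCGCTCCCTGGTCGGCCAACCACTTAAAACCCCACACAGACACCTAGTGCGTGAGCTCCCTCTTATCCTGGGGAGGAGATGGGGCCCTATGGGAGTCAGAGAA
Hoxa9: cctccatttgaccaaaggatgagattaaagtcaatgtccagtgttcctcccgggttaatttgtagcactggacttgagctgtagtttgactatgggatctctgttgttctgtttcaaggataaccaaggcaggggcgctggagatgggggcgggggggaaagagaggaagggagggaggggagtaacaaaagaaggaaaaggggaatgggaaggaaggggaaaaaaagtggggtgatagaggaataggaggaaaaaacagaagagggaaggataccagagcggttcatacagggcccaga
The Hoxa5 window holds 29 CpG dinucleotides, at the percentile 87.7 of the 32851 RefSeq windows, with tied windows at their middle rank. Hoxa10 holds 21 (percentile 76.0), Hoxb4 14 (64.5), Hoxa7 9 (55.4) and Hoxa9 4 (34.7), where the median window holds 7. The CCAAT box, a known element of Hoxb4 regulation through the factor NF-Y, was searched on both strands and lies in 37.4% of all windows. It was found on the opposite strand 64 bases before the Hoxa10 start, inside the peak, and 204 bases before the Hoxa5 start, outside it. The Cdx core TTTATG, present in 11.9% of all windows, was found in Hoxa7 alone, 236 and 173 bases before the start. The motifs CACGTG (7.15% of windows), TGACAG (19.2%) and TGATTTAT (0.977%) were found in none of the 5 genes' windows.

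Around Hoxb4, all 4 lists hold a peak. That of fetal HSCs spans the start (chr11:96318069-96318758), and the nearest edges lie 253 bases downstream in fetal LMPPs, 230 bases downstream in adult LMPPs and 259 bases downstream in adult HSCs. Within its own list, the authors' signal value of this peak stood at the percentile 9.3 in fetal LMPPs, 46.1 in adult LMPPs, 61.7 in fetal HSCs and 36.2 in adult HSCs. A further region listed in all 4 groups lies between Hoxb5 and Hoxb4 (chr11:96311192-96312391), inside the longer Hoxb3 gene span of RefSeq, 7680 to 8117 bases downstream of the Hoxb5 start. No list has a peak within 1 kb of Hoxb2, Hoxb3, Hoxb5, Hoxb6 or Hoxb7. For Hoxb2, the Hoxb gene with the highest level in HSCs, the nearest peak is the Hoxb4 peak, 32378 to 32874 bases upstream. The nearest peak to Hoxb6 lies 4226 bases upstream in fetal HSCs and 12118 to 12555 bases downstream in the other lists.

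In the Hoxa cluster, the Hoxa5 start is covered in the fetal HSC list alone (chr6:52204347-52204775, signal at the percentile 19.9 of that list), and the nearest peaks of fetal LMPPs, adult LMPPs and adult HSCs lie 7026, 8515 and 6951 bases away. Hoxa5 was also highest in the fetal HSC libraries. The Hoxa10 start is covered in adult HSCs (chr6:52233908-52235126) and has a peak 556 bases downstream in fetal HSCs, whereas the nearest peaks are 5522 bases away in fetal LMPPs and 5125 bases away in adult LMPPs. Hoxa7 has a peak 841, 850 and 830 bases downstream of its start in adult LMPPs, fetal HSCs and adult HSCs, and its nearest peak in fetal LMPPs, where its RNA was highest, lies 2985 bases upstream. Hoxa9 lies just outside the distance used, with peaks 1067, 1036 and 1044 bases downstream in fetal LMPPs, adult LMPPs and fetal HSCs, and 5105 bases downstream in adult HSCs. A second RefSeq start of Hoxa10 lies upstream, at position 52240854, and has a peak 143, 148, 40 and 143 bases downstream in fetal LMPPs, adult LMPPs, fetal HSCs and adult HSCs.

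Across whole clusters, the Hoxa cluster (105.5 kb) held 7 peaks in fetal LMPPs, 7 in adult LMPPs, 8 in fetal HSCs and 8 in adult HSCs, which merge into 12 regions. Of these, 2 regions were listed in all 4 groups, among them the region at the second Hoxa10 start (chr6:52240064-52240814). The Hoxb cluster (173.9 kb) held 3, 4, 3 and 5 peaks in that order, merging into 9 regions, of which the 2 named above were in all 4 lists. The number of Hoxb peaks did not follow the Hoxb share of the RNA, since fetal LMPPs and fetal HSCs each had 3.

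**Figure D5:**
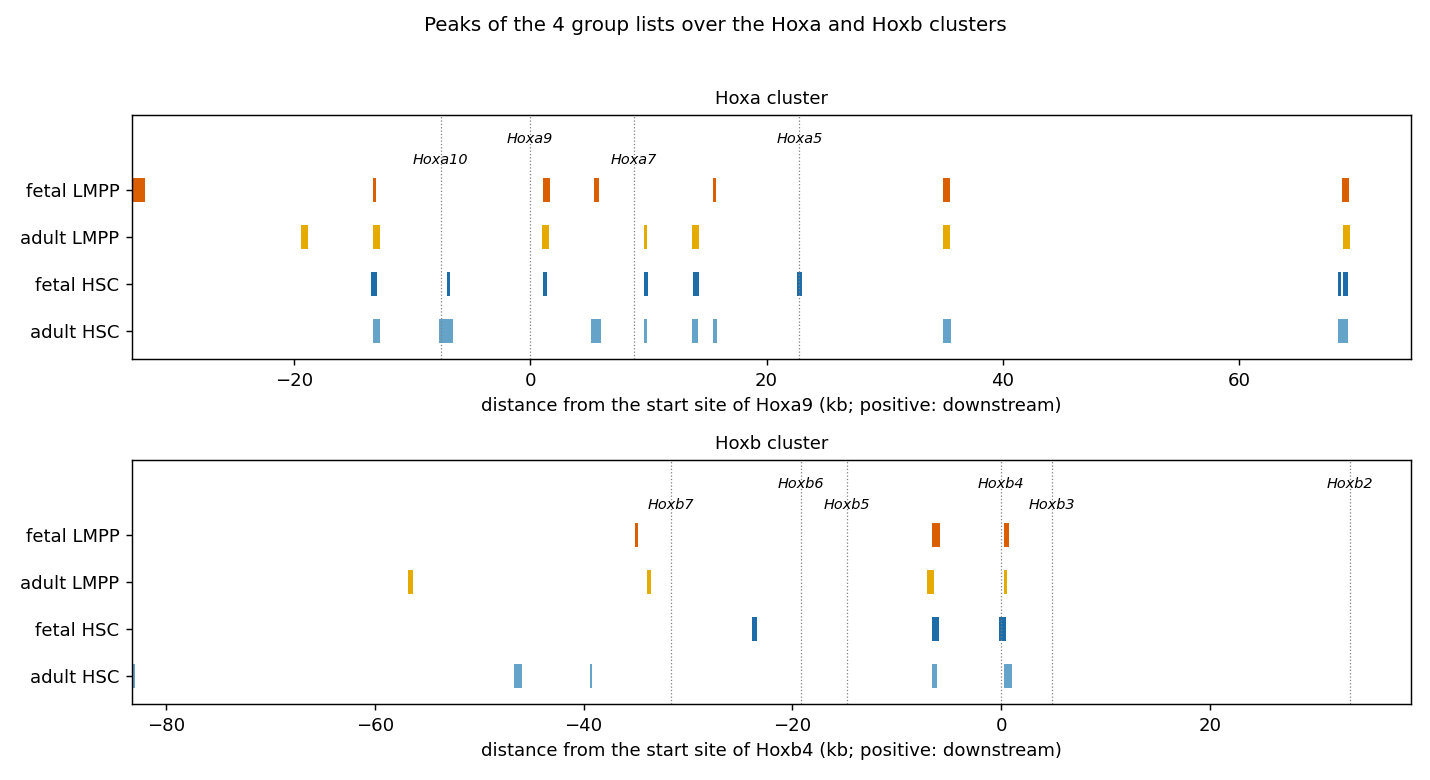
Listed ATAC-seq peaks of the 4 groups across the Hoxa and Hoxb clusters (horizontal axes, distance in kb from the start site of Hoxa9 or Hoxb4, positive downstream); bars are peaks to scale and dotted lines the start sites of the 10 genes. Peaks at the Hoxb4 start are present in all 4 lists, and a bar on the Hoxa5 start in the fetal HSC list alone.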

How the data were processed

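RNA of 11 libraries and open chromatin of 8 were measured in sorted mouse cells. The RNA table holds expected counts per gene, deposited by the authors as an exon count matrix, in steps of 0.5 and with 22.5% of values not whole. SMART-Seq v4 and Nextera XT were used, per the labels' protocols, without strand or molecular identifiers. The submitters' processing notes name, without roles, the aligners STAR and Bowtie2 2.3.5, the counters HOMER and RSEM, MACS2 for peaks, further Picard, DESeq2, Trim Galore and SAMtools 1.9, and the builds mm10, NCBIM37 and GRCm38.p5. The deposited peak lists, 1 per group from 2 libraries, give the authors' signal value (a fold enrichment, or ratio), a score, and -log10 q per peak.

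Counts were rounded to whole numbers and filtered (filterByExpr, 14720 of 25124 genes kept), scaled by TMM and fitted with edgeR 4.0.16 (quasi-likelihood) in R 4.3.3 over all 4 groups, with Benjamini-Hochberg adjustment over all genes tested and a threshold of 0.05. The SE of a log2 difference was its size divided by the square root of F. CPM use effective library sizes of the unrounded values, and a limit of 3 counts stood for 0. DESeq2 1.42.0 and other settings were alternatives. The code was checked on simulated counts. Lines of a peak list with the same bounds were taken as 1 peak, and distances run from the start of the listed transcript to the nearest edge. RefSeq promoter windows are on GRCm38.p6, the same coordinates as mm10.

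Members, lists and tests were chosen with earlier results of these data known. Named were all 10 members, at most 4 called genes per list and comparison by lowest p, and the 5 genes most like Hoxa9 and Hoxb4. Deviations of same-numbered libraries from their group means correlated at 0.153, 0.306 and 0.472 between adult HSCs and adult LMPPs. The main fit did not use this pairing, so its adult p-values are unpaired. The replicate number was a block in an alternative fit. In the other pairs of groups same-numbered libraries did not deviate together. Lists and markers were described by counts, without a set test. Some listed genes and regions are not reported here.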

Additional observations from a re-analysis of the deposited data

Results flagged for a closer look

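None of the 10 Hox genes passed the interaction test, fetal minus adult LMPP to HSC difference, with all libraries. Hoxb5 and Hoxa9 passed in 1 other setting each. Estimates below 0 numbered 9 of 10 here, 15 of 16 for the Polycomb genes, 12 of 17 for the activators and 3 of 6 for the other Hox genes. The median over all genes tested was 0.00996. Of the 11 listed targets of Hoxa9 or Meis1, 2 passed the interaction test, both below 0, beside 0.543% of all genes called lower. The difference of Flt3 was 4.08 ± 0.24 in fetal liver and 6.19 ± 0.22 in adult marrow on the log2 scale, and the fetal value minus the adult one was -2.11 ± 0.27 (edgeR, adjusted p = 0.00702), in 19 of 19 other settings. Flt3 is a gate of the sort. The difference of Cd34 was 1.49 ± 0.19 in fetal liver and 2.84 ± 0.17 in adult marrow, and the fetal value minus the adult one was -1.35 ± 0.24 (edgeR, adjusted p = 0.0266). That call was kept in 9 of 19 other settings, and lost without fetal HSC library 1 or 2, adult HSC library 1 or 2, fetal LMPP library 2 or 3, any 1 adult LMPP library, or with the replicate block. Summed markers of other cells in these groups are given with the library totals above, and their part was not tested.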

How the results depend on the processing

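No called difference of the 10 genes reversed under any of the 20 alternatives. Of the values compared for single genes, 898 stayed on the same side of the threshold, 70 lost it and 17 gained it. Leaving out 1 library gave 2 to 9 called genes for fetal LMPPs against HSCs (8 with all libraries), 2 to 5 for adult LMPPs against HSCs (5), 0 to 2 for fetal against adult LMPPs (1), 0 for fetal against adult HSCs (0) and 0 to 1 for the interaction (0). Where Hoxb6 and Hoxb7 were called in LMPPs against HSCs, they are in these counts but carry no weight. Without the 3 libraries that stood apart, the counts were 2 for fetal against adult HSCs, 3 for fetal against adult LMPPs and 1 for the interaction. DESeq2 called 2 genes for fetal against adult LMPPs. Fits to the compared groups alone called 0 there and 3 for adult LMPPs against HSCs, and are not defined for the interaction, which uses all groups. The replicate block gave 0 for fetal against adult LMPPs, 3 for fetal LMPPs against HSCs (Hoxb2, Hoxb5 and Hoxa10) and 4 for adult LMPPs against HSCs. Under it Hoxa5, Hoxb3, Hoxb4, Hoxb6 and Hoxb7 missed the threshold in fetal liver, at adjusted p of 0.0586 to 0.0827 in edgeR. Outside the adult pair the numbers do not show pairing, with correlations of -0.207 to 0.0987 in the other pairs of groups, and 6 of 11 libraries were closest to a library of their own number. Scaling by library totals alone moved the median of all genes by up to 0.247 on the log2 scale and gave 746 higher and 2161 lower genes for fetal LMPPs against HSCs, in place of 1208 and 1450, and 926 and 1643 for fetal against adult LMPPs, in place of 1042 and 1221. The members' calls stayed at 8 and 1 there. The cause of these changes was not tested. Over all genes, the counts ranged from 104 to 1055 higher and 110 to 1213 lower for fetal against adult HSCs, 560 to 2173 and 749 to 2195 for fetal against adult LMPPs, 676 to 2001 and 895 to 2246 for adult LMPPs against HSCs, 230 to 2570 and 412 to 2947 for fetal LMPPs against HSCs, and 8 to 327 and 24 to 458 for the interaction. Genes with a listed peak at the start site numbered 1 in fetal LMPPs, 2 in adult LMPPs, 4 in fetal HSCs and 3 in adult HSCs. They were 0, 0, 2 and 1 where the peak had to cover the start, 5, 5, 7 and 4 within 5 kb, and 0, 0, 1 and 0 among the stronger peaks of each list. Depth limits Hoxb3, Hoxb4, Hoxb5, Hoxb6 and Hoxb7 in LMPPs, where they had 0 to 22.5 counts a library. Hoxb2 had 0.5 to 55.5 counts a library in LMPPs.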
